A study of Rattus norvegicus with 24 samples.

Results

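The clock output genes described here are Dbp, Tef, Hlf, Nfil3, Ciart, Bhlhe40, Bhlhe41 and Wee1. They were taken from the table by gene symbol, and each of the 8 symbols had 1 row among the 21067 genes listed. All 8 were among the 14772 genes tested, those whose FPKM averaged 0.1 or more across the 24 libraries. RNA was measured in quadriceps muscle of Sprague-Dawley rats, males and females, with 6 rats and 6 libraries in each of 4 groups. The rats were 6 weeks old when obtained, and older by more than the 7 weeks of training when muscle was taken. All had a short treadmill habituation before the groups were formed. The control group was fed normally and did no treadmill training. The treadmill group trained for 7 weeks and then ran to exhaustion. Catgut group 1 did the same training and run after collagen thread had been embedded at a set of acupoints that included Bai Hui and Qiang Feng, and catgut group 2 had thread at those acupoints plus Fei Shu. The clock time at which muscle was taken is not given in the sources used here, and neither catgut group has a counterpart that was embedded but not trained. Embedding was done by needle under ether, and no sham procedure is described for the treadmill group. Thread, needling and anaesthesia therefore cannot be told apart.

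The circadian clock runs in most cells, muscle fibres included. BMAL1 (gene Arntl) and CLOCK bind E-boxes and switch on their own repressors, the PER and CRY proteins, and a second tier of transcription factors that pass the rhythm on. DBP, TEF and HLF are the PAR bZIP activators of that tier, and NFIL3 (E4BP4) is a bZIP repressor that binds the same D-box sites and usually peaks when DBP is low. CIART (CHRONO), BHLHE40 (DEC1) and BHLHE41 (DEC2) repress BMAL1:CLOCK, and WEE1 is a kinase that delays entry into mitosis and whose gene is a known E-box target.

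FPKM, the unit of level used here, scales fragments by transcript length and library size, and the differences are log2 fold changes fitted to the counts. Total counts were 45945938 to 78278080 per library, and the 8 listed genes of the skeletal muscle markers summed to 65513 to 91746 FPKM in every library. Liver markers (4 of 4 listed) had summed FPKM from 0.145 to 164 for control rats, from 0.518 to 265 for treadmill rats, from 0.0456 to 0.616 for catgut 1 rats and from 0.131 to 0.725 for catgut 2 rats. Blood markers (3 of 4 listed) had medians of 505, 763, 910 and 891 FPKM in the same order. Their part in the results below was not tested, and in bulk muscle fewer cells of a type and less RNA per cell cannot be told apart. Transcripts of 3 Y-linked genes were detected in 3, 3, 3 and 2 of the 6 libraries of control, treadmill, catgut 1 and catgut 2 rats, and some values below are split by this. The study assigned males and females in equal numbers to each group, from which the count in catgut group 2 departs. Cages held rats of the same sex, so sex and cage cannot be told apart.

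The promoter windows of the members are shown because Dbp, Tef and Ciart varied together between libraries and BMAL1:CLOCK acts through E-boxes. RefSeq sequence of the rat assembly GRCr8, from 250 bases before to 50 after each gene's start, was held for 6 of the 8 members. Hlf and Wee1 had no entry. The canonical E-box, CACGTG on either strand (the letters are their own complement), was present in 4 of these 6 windows, beside 6.42% of all 33469 promoter windows of that length. Of the 18 genes of the core clock loop, 13 had a window and 1 of these, that of Nr1d1, held the E-box. Ciart had 3 copies, which 0.0568% of all windows had. The stretches below show the bases around each match, with the E-box in capitals, and the 100 bases before the start of Dbp, which held none.
Tef, chr7:115206599-115206664, plus strand: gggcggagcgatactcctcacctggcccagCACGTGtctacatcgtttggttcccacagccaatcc
Ciart, chr2:186112247-186112369, minus strand: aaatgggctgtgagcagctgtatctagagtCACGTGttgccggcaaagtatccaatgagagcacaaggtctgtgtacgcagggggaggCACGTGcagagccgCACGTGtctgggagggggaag
Bhlhe40, chr4:143174200-143174265, plus strand: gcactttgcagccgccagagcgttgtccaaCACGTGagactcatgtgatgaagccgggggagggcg
Bhlhe41, chr4:180569368-180569433, minus strand: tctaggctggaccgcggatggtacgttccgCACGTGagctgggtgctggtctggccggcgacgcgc
Dbp, chr1:105312156-105312255, plus strand: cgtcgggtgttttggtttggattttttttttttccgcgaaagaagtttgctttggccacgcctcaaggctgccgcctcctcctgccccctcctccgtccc
Counted from the gene's start, the Ciart copies began at -93, -35 and -21, and those of Tef, Bhlhe40 and Bhlhe41 at -198, -220 and -48. Neither Dbp nor Nfil3 had a match in the window, which says only that these letters are absent from it. The D-box letters TTATGTAA or TTACGTAA, in 1.01% of all windows, were in none of the 6 members, and 1 copy stood at -192 of Per2. The REV-ERB and ROR element TAGGTCA, in 2.63% of all windows, was in none of the 6 either and stood at -16 of Arntl. A match is a description of letters and not a bound site.

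Dbp was the most abundant of the 8 genes and had the widest range in FPKM. It lies at chr1:101687855-101692846 on the plus strand as the table lists it (ENSRNOG00000021027). Its FPKM was between 7.18 and 140 (median 79.9) for control rats, between 6.54 and 46.1 (median 24.1) for treadmill rats, between 65.0 and 121 (median 99.9) for catgut 1 rats and between 79.9 and 124 (median 111) for catgut 2 rats. Every library of both catgut groups lay above every treadmill library, while the control libraries spanned nearly the whole range. Control replicates 1 and 2 were at 7.18 and 10.3 FPKM, and the other 4 controls were at 71.6, 88.2, 116 and 140 FPKM. Means were 72.2 ± 54.4, 23.3 ± 15.0, 99.0 ± 19.3 and 106 ± 18.7 FPKM (SD, n = 6) for control, treadmill, catgut 1 and catgut 2 rats.

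Tef, like Dbp, was lowest in the treadmill group, with a narrower range. The gene (ENSRNOG00000019383, chr7:123043503-123058604, plus strand) encodes thyrotroph embryonic factor, a PAR bZIP activator. Its FPKM was between 28.8 and 71.0 (median 63.4) for control rats, between 22.6 and 44.6 (median 33.4) for treadmill rats, between 46.1 and 69.0 (median 56.9) for catgut 1 rats and between 45.5 and 71.95 (median 60.1) for catgut 2 rats. The highest treadmill library was just below the lowest library of either catgut group. Control replicates 1 and 2, low in Dbp, were also the lowest controls for Tef, at 36.4 and 28.8 FPKM.

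Hlf, the third PAR bZIP activator, was the least abundant member and did not share the order of Dbp and Tef. It lies at chr10:77840568-77918191 on the minus strand (ENSRNOG00000002456), and 24 to 279 counts per library stood behind its values. Mean FPKM was 3.03 ± 0.689 in the control group, 1.76 ± 0.788 in the treadmill group, 2.68 ± 0.777 in catgut group 1 and 2.17 ± 0.504 in catgut group 2 (SD, n = 6). The control group was highest, and control replicates 1 and 2, at 2.80 and 2.57 FPKM, lay within the range of the other controls. Treadmill replicate 3 was lowest of all libraries, at 0.443 FPKM.

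Nfil3, the repressor at D-boxes, had its highest mean in the treadmill group, where Dbp was lowest. Single libraries departed from this, as catgut 1 replicate 5 had 18.3 FPKM of Nfil3 and 94.8 FPKM of Dbp. The gene (ENSRNOG00000011668) lies at chr17:12261102-12276315 on the plus strand. Its FPKM was between 5.79 and 15.9 (median 7.90) for control rats, between 9.05 and 25.6 (median 13.1) for treadmill rats, between 7.69 and 18.3 (median 10.0) for catgut 1 rats and between 5.17 and 11.48 (median 9.69) for catgut 2 rats. The groups overlapped. The 3 treadmill libraries without Y-linked transcripts were at 15.97, 16.9 and 25.6 FPKM and the 3 with them at 9.05 to 10.2 FPKM, without overlap.

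Ciart, which represses BMAL1:CLOCK, was like Dbp lowest in the treadmill group, but its median in catgut group 2 was below that of the control group. It lies at chr2:197987705-197991574 on the minus strand (ENSRNOG00000042717). Its FPKM was between 0.460 and 13.9 (median 9.24) for control rats, between 0.459 and 5.53 (median 2.60) for treadmill rats, between 9.09 and 13.2 (median 11.6) for catgut 1 rats and between 6.97 and 13.7 (median 8.21) for catgut 2 rats. No treadmill library reached the lowest library of a catgut group. Control replicates 1 and 2, at 0.460 and 1.19 FPKM, again stood with the treadmill libraries, and the other controls were at 9.07 to 13.9 FPKM.

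Bhlhe40 and Bhlhe41 are paralogous repressors, and neither separated the groups. Bhlhe40 (ENSRNOG00000007152, chr4:140703619-140709319, plus strand) had group means of 37.4 ± 12.1, 41.9 ± 14.2, 42.6 ± 12.9 and 39.9 ± 12.1 FPKM (SD, n = 6) for control, treadmill, catgut 1 and catgut 2 rats, in this order. The spread within each group was larger than any difference between these means. Bhlhe41 (ENSRNOG00000048961, chr4:180232382-180234804, minus strand) had means of 14.8 ± 7.86, 10.5 ± 2.33, 15.3 ± 4.96 and 11.2 ± 2.35 FPKM in the same order. Control replicates 1 and 2 were the lowest controls for Bhlhe41, at 7.43 and 5.42 FPKM, as they were for Dbp, Tef and Ciart.

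Wee1 had the narrowest spread of the 8 genes in catgut group 2 and its lowest mean in the treadmill group. It lies at chr1:174767960-174786361 on the plus strand (ENSRNOG00000010017), where the table also lists RF00026 on the same strand, so reads of the overlap cannot be told apart. Its FPKM was between 2.98 and 6.56 (median 3.998) for control rats, between 2.29 and 4.66 (median 2.93) for treadmill rats, between 3.74 and 9.31 (median 5.33) for catgut 1 rats and between 5.45 and 7.51 (median 6.55) for catgut 2 rats. The catgut 1 range overlapped that of the treadmill group through its replicate 1, at 3.74 FPKM. The coefficient of variation in catgut group 2 was 10.99%, beside a median of 23.2% over all genes tested.

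**Figure D1:**
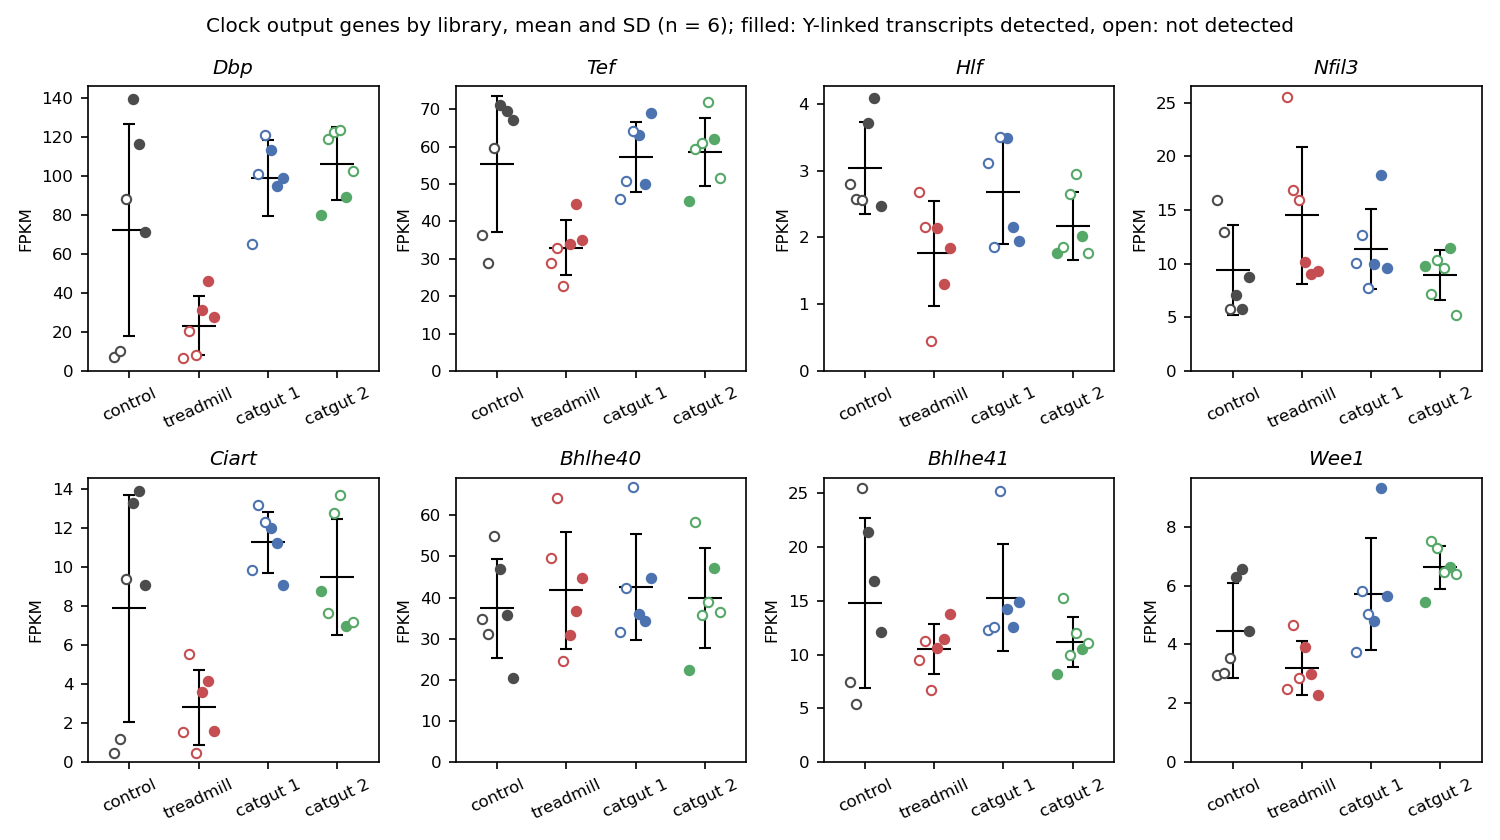
FPKM (vertical axis) of the 8 genes in each of the 24 libraries, by group, with the group mean and SD as bars and filled points for libraries with Y-linked transcripts. The control libraries of Dbp lie in a low pair at 7.18 and 10.3 FPKM and a set of 4 from 71.6 to 140 FPKM, and the treadmill libraries of Dbp, Tef and Ciart lie below both catgut groups.

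The first comparison, treadmill against control, sets rats that trained and ran to exhaustion against untrained rats. As the clock time of sampling is not given, a difference in it between groups cannot be told apart from training or embedding. No member passed an adjusted p of 0.05 in edgeR's quasi-likelihood test (percent of all genes tested that did: 0.0542), and 3 of 8 were under 0.05 before adjustment, beside 9.12% of all genes tested. By the criterion of the study, group mean FPKM apart by more than 1.5 times together with p under 0.05 before adjustment, the 3 PAR bZIP activators were lower in the treadmill group, beside 2.85% of all genes tested in either direction. The p in this criterion is that of the fit made here, as the study names no test for its own, so the genes that meet it can differ from the study's. The log2 fold change was -1.52 for Dbp (SE 0.693, edgeR adjusted p = 0.544), -0.70 for Tef (SE 0.230, adjusted p = 0.446) and -0.75 for Hlf (SE 0.322, adjusted p = 0.526). No member separated the groups (0.447% of all genes did), and the two-sided exact permutation test of log2(FPKM + 1) gave p = 0.180 for Dbp, 0.0303 for Tef and 0.00866 for Hlf. For Hlf, 5 of 6 treadmill libraries were below every control library. For Nfil3 the log2 difference was 0.61 (SE 0.320, adjusted p = 0.572), for Ciart -1.45 (SE 0.725, adjusted p = 0.558) and for Wee1 -0.45 (SE 0.209, adjusted p = 0.549).

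These counts changed with single libraries. The number of members that met the criterion was 5 without control replicate 2 (4.41% of all genes did), and 1 without control replicate 4, control replicate 5 or treadmill replicate 3 (3.02, 2.54 and 2.55% of all genes). Among the libraries with Y-linked transcripts 5 members met it, beside 9.85% of all genes, and among those without them 0, beside 3.04%. The log2 fold change of Dbp was -1.45 in the first set and -1.69 in the second, and that of Wee1 was -0.74 and -0.04. The median log2 fold change of the 8 genes was -0.57, against -0.0020 over all genes tested.

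Catgut group 1 against the treadmill group had Dbp, Ciart, Tef and Wee1 higher. None of the 8 passed an adjusted p of 0.05 in edgeR (0.0474% of all genes did), 5 were under 0.05 before adjustment (6.93% of all genes), and DESeq2 called 4 (0.945% of all genes). These 4 genes met the criterion of the study, all of them higher (3.12% of all genes tested met it in either direction). The log2 fold change was 2.02 for Dbp (95% interval 1.11 to 2.94, edgeR adjusted p = 0.149) and 2.00 for Ciart (1.104 to 2.90, adjusted p = 0.149). It was 0.76 for Tef (0.38 to 1.14, adjusted p = 0.182) and 0.81 for Wee1 (0.40 to 1.23, adjusted p = 0.208). Dbp, Ciart and Tef did not overlap between the groups, 3 of 8 beside 0.413% of all genes, and their exact permutation p was 0.00216, the smallest that 6 against 6 libraries can give. For Wee1, 5 of 6 catgut 1 libraries were above every treadmill library (exact permutation p = 0.00866).

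The other 4 members gave smaller differences in this comparison. The log2 fold change was 0.48 for Bhlhe41 (SE 0.196, edgeR adjusted p = 0.617), 0.60 for Hlf (SE 0.351, adjusted p = 0.831) and -0.35 for Nfil3 (SE 0.255, adjusted p = 0.900). Bhlhe40 had 0.0025 (95% interval -0.42 to 0.42). The difference of Bhlhe41 was 0.33 without catgut 1 replicate 3, its highest library. Among the libraries with Y-linked transcripts the log2 fold change was 1.47 for Dbp, 1.71 for Ciart and 0.60 for Tef, and among those without them it was 3.09, 2.35 and 0.96. The difference between the sets was not tested.

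In catgut group 2 against the treadmill group, Wee1 rose, and it was the only member that passed the adjusted test in any of the 6 comparisons. Its log2 fold change was 1.03 (SE 0.130, 95% interval 0.75 to 1.31, edgeR adjusted p = 0.00825), a fold of 2.04, and its p ranked 5 among 14772 genes. One member of 8 compares with 0.237% of all genes tested, and 5 of 8 under 0.05 before adjustment compare with 10.7%. All 6 catgut 2 libraries were above every treadmill library. With any 1 library left out the adjusted p of Wee1 was 0.00749 to 0.0335, and with the replicate number as a block it was 0.0683. Among the libraries with Y-linked transcripts its log2 fold change was 0.97 and among those without them 1.07, with adjusted p of 0.515 and 0.234 in these smaller sets.

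Dbp, Tef and Ciart were higher in catgut group 2 as well but did not pass the adjusted test. The log2 fold change was 2.11 for Dbp (SE 0.419, edgeR adjusted p = 0.0651), 0.78 for Tef (SE 0.156, adjusted p = 0.0663) and 1.75 for Ciart (SE 0.433, adjusted p = 0.140). With any 1 library left out, the edgeR adjusted p was 0.0336 to 0.153 for Dbp and 0.0323 to 0.173 for Tef. The lower ends were reached without treadmill replicate 5, the treadmill rat with the most Dbp. In that fit 3 members were called, beside 0.19% of all genes. DESeq2 called 4 of the 8 (2.1% of all genes), limma on log2(FPKM + 1) 2 (0.142%) and the fit with the Y-linked level as a covariate 3 (0.325%). Dbp, Tef, Ciart and Wee1 separated the groups, 4 of 8 beside 1.04% of all genes (exact permutation p = 0.00216 for each).

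Nfil3 met the criterion in the opposite direction, so that 5 of 8 members met it in catgut group 2 against the treadmill group, 4 higher and 1 lower, beside 3.76% of all genes tested. Its log2 fold change was -0.70 (SE 0.254, edgeR adjusted p = 0.316), with 2 of 6 catgut 2 libraries below every treadmill library. Among the libraries with Y-linked transcripts it was 0.14, and among those without them -1.29. Hlf had a log2 fold change of 0.27 (SE 0.322), Bhlhe41 of 0.035 (SE 0.170) and Bhlhe40 of -0.092 (SE 0.204), and none of these 3 was under 0.05 before adjustment.

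**Figure D2:**
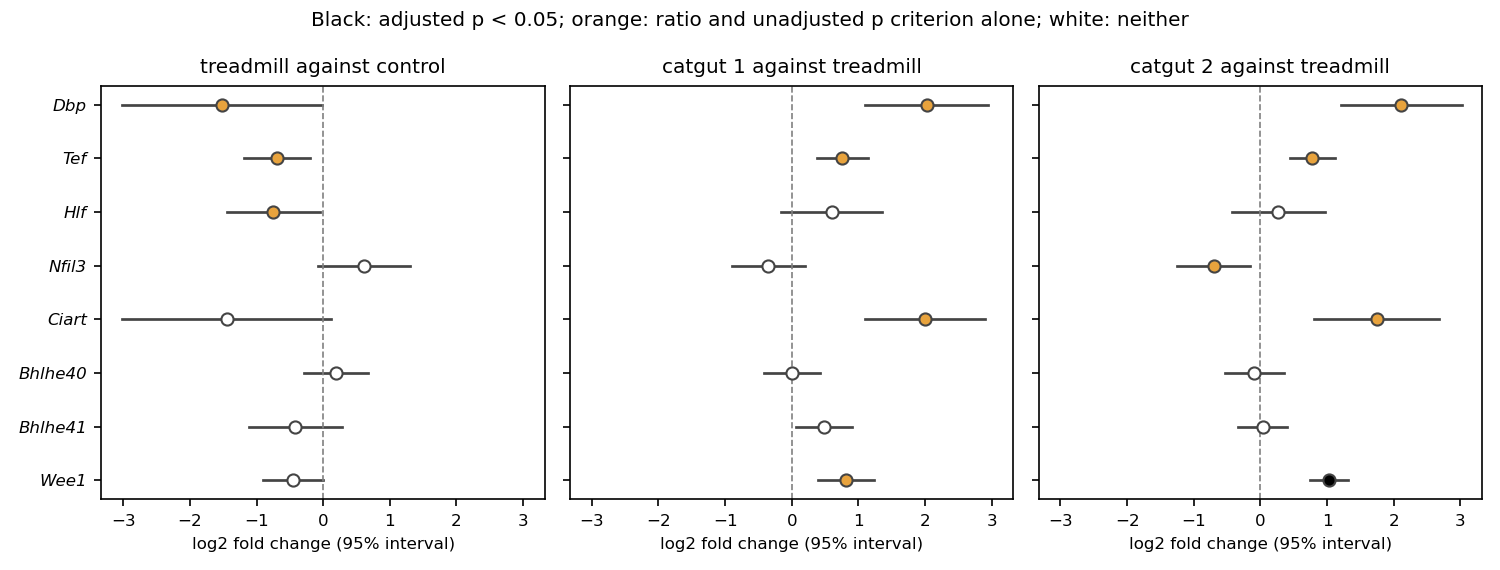
Log2 fold change (horizontal axis) of each gene for the treadmill group over the control group and for each catgut group over the treadmill group, with 95% intervals from edgeR. Black marks an adjusted p under 0.05, which only Wee1 in catgut 2 against treadmill reached (1.03), and orange marks genes that met the criterion of ratio and unadjusted p alone.

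Both of these comparisons share the 6 treadmill libraries, so their values are not independent. Compared directly, the catgut groups differed in no member by the criterion (1.25% of all genes met it) or by an adjusted p under 0.05 (0.00677% of all genes did). Bhlhe41 had the smallest p of the 8, with a log2 fold change of -0.45 in catgut 2 against catgut 1 (SE 0.160, unadjusted p = 0.0141 and adjusted p = 1 in edgeR, exact permutation p = 0.0433). It was -0.30 without catgut 1 replicate 3. One of 8 under 0.05 before adjustment stands beside 3.26% of all genes. The 95% interval of the difference was -0.20 to 0.36 for Dbp, -0.25 to 0.28 for Tef and -0.13 to 0.54 for Wee1 on the log2 scale. Differences larger than these bounds are therefore outside the intervals, and smaller ones could not be resolved.

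Against the control group, neither catgut group differed in any member by the criterion or the adjusted test. For catgut group 1, 4.62% of all genes tested met the criterion and 0.0203% passed the adjusted test, and no member was under 0.05 before adjustment (9.84% of all genes were). For catgut group 2 the shares were 5.96% and 0.508%, and 2 of 8 members were under 0.05 before adjustment, where 16.4% of all genes were. These were Wee1, with a log2 fold change of 0.58 (SE 0.175, unadjusted p = 0.00596, edgeR adjusted p = 0.145), and Hlf, with -0.48 (SE 0.175, unadjusted p = 0.0165, adjusted p = 0.196). DESeq2 and the fit with the Y-linked level gave Wee1 adjusted p of 0.0357 and 0.0343, and called 4.74 and 0.887% of all genes. The 95% interval for Dbp ran from -0.70 to 1.70 for catgut group 1 and from -0.61 to 1.78 for catgut group 2, so that neither direction was resolved.

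The order of mean levels was not the same for all members. Dbp, Tef and Wee1 were ordered catgut 2, catgut 1, control and treadmill from high to low. Ciart was ordered catgut 1, catgut 2, control and treadmill, and Hlf control, catgut 1, catgut 2 and treadmill. Nfil3 was highest in the treadmill group, then in catgut 1, control and catgut 2. No neighbours in these orders passed the adjusted test, and in the exact permutation test the only neighbours under 0.05 were control and treadmill for Tef (p = 0.0303).

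The activators and the repressor that share D-box sites were set against each other in each library. The ratio of the summed FPKM of Dbp, Tef and Hlf to that of Nfil3 was between 2.91 and 32.8 (median 20.5) for control rats, between 1.495 and 10.2 (median 4.66) for treadmill rats, between 8.04 and 24.5 (median 14.7) for catgut 1 rats and between 13.0 and 30.1 (median 19.3) for catgut 2 rats. The ratio of catgut group 2 did not overlap with that of the treadmill group, and that of catgut group 1 did. Dbp made up between 15.5 and 65.1% of the activator sum for control rats, between 17.1 and 50.1% for treadmill rats, between 56.9 and 65.8% for catgut 1 rats and between 58.3 and 66.1% for catgut 2 rats. In treadmill replicate 1 the sum was closest to Nfil3, at a ratio of 1.495. No test was made of this ratio.

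**Figure D3:**
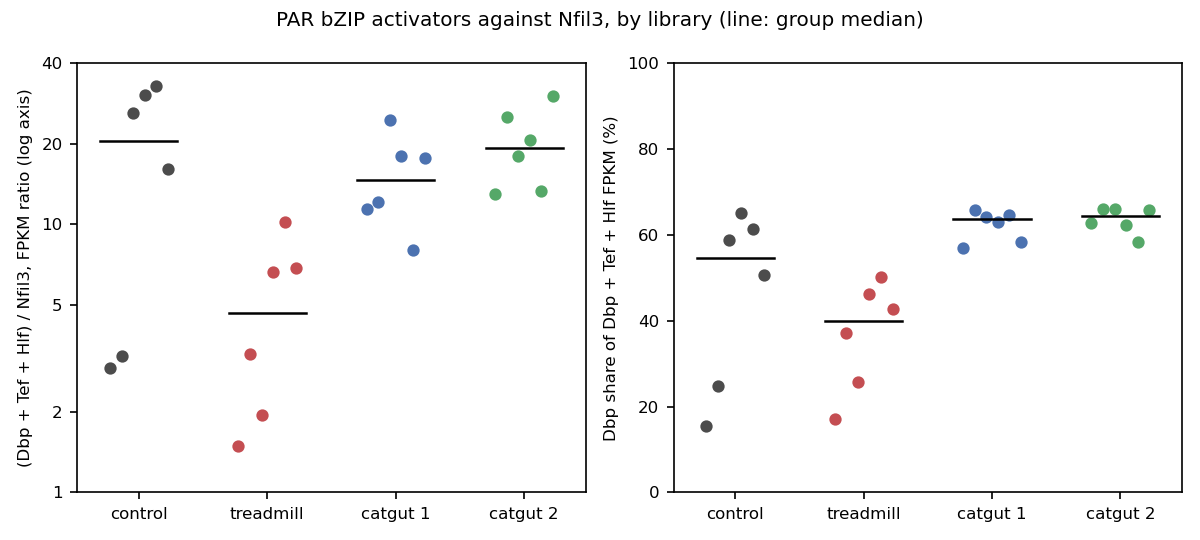
Left, ratio of summed Dbp, Tef and Hlf FPKM to Nfil3 FPKM on a log axis, and right, the percent of that sum made up by Dbp, with 1 point per library and the group median as a line. The ratio lies between 1.495 and 10.2 in the treadmill group and between 13.0 and 30.1 in catgut group 2.

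Across the 24 libraries, Dbp, Tef and Ciart varied together. Pearson r of log2(FPKM + 1) was 0.940 for Dbp and Ciart (Spearman rho 0.864) and 0.908 for Dbp and Tef (rho 0.854), each with a permutation p of 1e-05, the smallest that 100000 resamples can give, and 5.14e-05 after adjustment over 36 relations. Without the 2 libraries farthest from the median of Dbp, r was 0.927 and 0.936. With each group's mean removed, r was 0.901 and 0.875 (permutation within groups, adjusted p = 0.00458 and 0.00216). Within the groups taken alone, Dbp and Tef had r of 0.950, 0.877, 0.718 and 0.716 for control, treadmill, catgut 1 and catgut 2 rats, in this order. For Dbp and Ciart these were 0.996, 0.694, 0.562 and 0.581, and for Tef and Ciart 0.943, 0.752, -0.112 and 0.515. Of the 4 values for Tef and Ciart, that of catgut group 1 was thus negative (exact permutation p = 0.812). In the same order of groups, the exact permutation p was 0.0306, 0.0125, 0.0736 and 0.121 for Dbp and Tef. For Dbp and Ciart it was 0.00417, 0.147, 0.257 and 0.214. The control values rest on replicates 1 and 2, low in Dbp, Tef and Ciart, which also enter the r with group means removed. Treadmill libraries without Y-linked transcripts had 6.54 to 20.6 FPKM of Dbp and 22.6 to 32.8 of Tef. Those with them had 27.5 to 46.1 and 33.98 to 44.6 FPKM, so the treadmill r of Dbp and Tef cannot be told apart from this split.

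Nfil3 and the core loop gene Arntl ran against Dbp. For Dbp and Nfil3, r was -0.682 (rho -0.568, permutation p adjusted over 36 relations 0.00072), -0.531 without the 2 farthest libraries and -0.739 with group means removed. Within groups it was -0.946 in the control and -0.885 in the treadmill group, but -0.198 and -0.168 in catgut groups 1 and 2 (exact permutation p = 0.651 and 0.747). The first of these values rests on control replicates 1 and 2, which had 15.9 and 12.97 FPKM of Nfil3. The other controls had 5.79 to 8.74 FPKM. For Dbp and Arntl, r was -0.915 (rho -0.75), -0.880 without the 2 farthest libraries and -0.839 with group means removed. Within groups the Arntl relation was -0.982 in the control and -0.872 in the treadmill group, but -0.279 in catgut group 1 and 0.480 in catgut group 2, where Dbp spanned 65.0 to 124 FPKM in all. The control value rests on replicates 1 and 2, which had 11.4 and 9.26 FPKM of Arntl while the other controls had 1.11 to 2.32 FPKM. In the treadmill group all 3 genes split without overlap by Y-linked transcripts. Libraries without them had at most 20.6 FPKM of Dbp, and at least 15.97 of Nfil3 and 8.71 of Arntl. Libraries with them had at least 27.5 FPKM of Dbp, and at most 10.2 of Nfil3 and 6.10 of Arntl. The treadmill values of r cannot be told apart from this split, and so from sex or cage. Nfil3 and Arntl had r of 0.609 (rho 0.466, adjusted permutation p = 0.00344 for r).

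**Figure D4:**
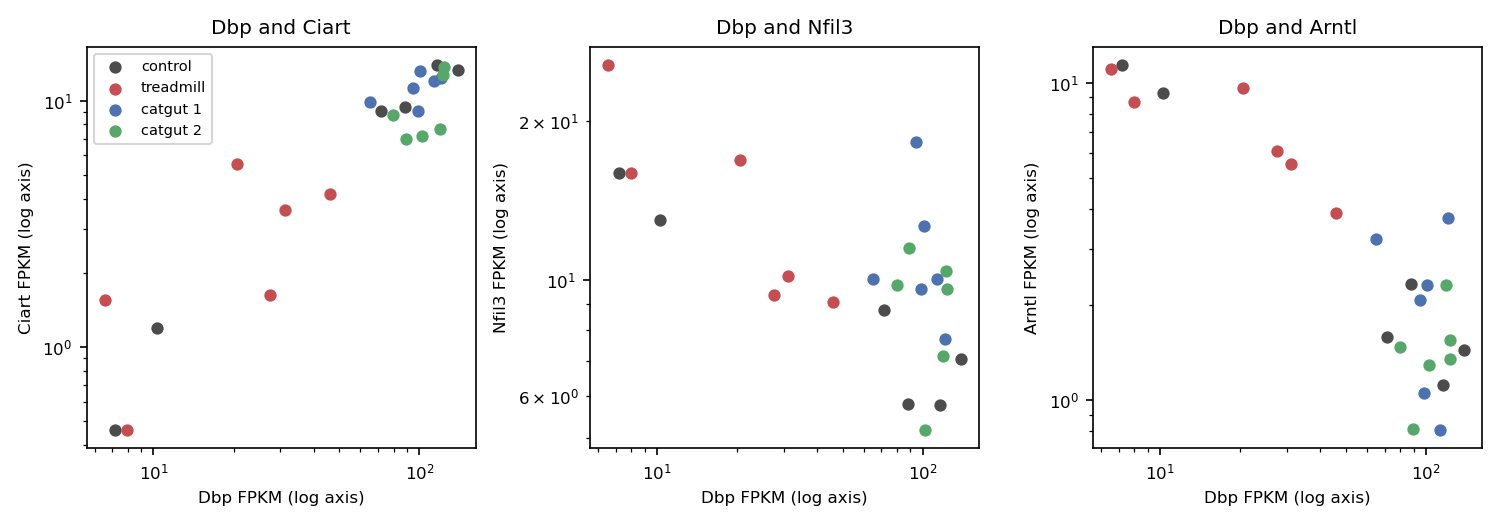
FPKM of Ciart, Nfil3 and Arntl (vertical log axes) against FPKM of Dbp (horizontal log axis) in the 24 libraries, coloured by group. Ciart is higher at higher Dbp (r = 0.940) and Nfil3 and Arntl are lower (r = -0.682 and -0.915), with control replicates 1 and 2 among the treadmill libraries.

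The remaining members differed in how they varied with Dbp. Wee1 had r of 0.782 with Dbp (rho 0.801), and 0.562 with group means removed (adjusted permutation p = 0.0567). Bhlhe41 had 0.664 with Dbp, and 0.797 with group means removed (adjusted permutation p = 0.00458). It had 0.578 with its paralogue Bhlhe40 (adjusted permutation p = 0.00608 for the latter). Hlf had 0.347 with Dbp (adjusted permutation p = 0.145) and Bhlhe40 0.159 (adjusted permutation p = 0.499), neither of which passed. All of these share the 24 libraries and are not independent of each other.

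Among all 14772 genes tested, the genes most like each member over the 24 libraries were sought by Pearson r, as a description. For Dbp they were Ciart, Per3 and Per2 (r = 0.940, 0.939 and 0.926), for Ciart they were Dbp, Per2 and Per3 (0.940, 0.926 and 0.916) and for Tef they were Dbp, Per3 and Cry2 (0.908, 0.883 and 0.873). The gene with the lowest r was Arntl for Dbp (-0.915) and Npas2 for Tef (-0.906), both activators of the core loop. Wee1 was most like Ifngr1, Per2 and Ppl (0.896, 0.895 and 0.874), with Lpin1 lowest (-0.805). The lists of the other members held no core loop gene. Hlf was most like Rnf168 (0.738), Nfil3 most like Pnrc1 (0.764), Bhlhe40 most like Zfp532 (0.848) and Bhlhe41 most like Apbb2 and Chd4 (both 0.788).

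**Figure D5:**
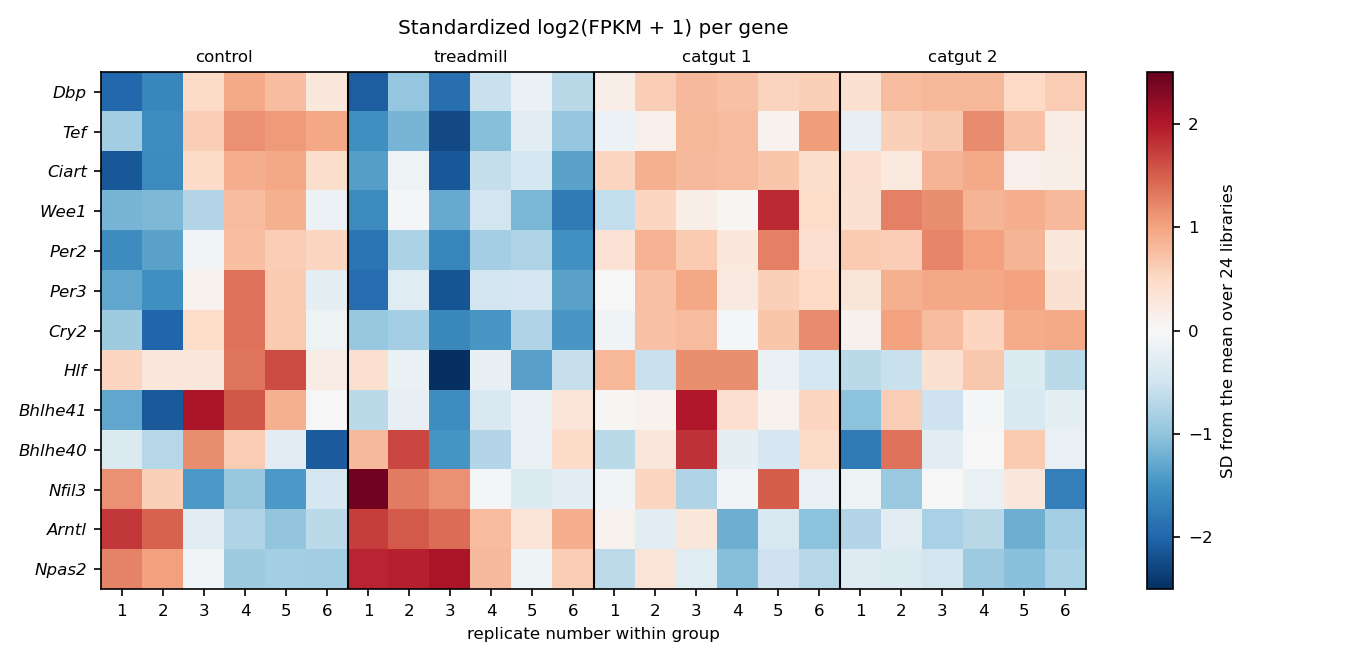
Log2(FPKM + 1) of the 8 genes and of 5 core loop genes in the 24 libraries, with each gene standardized to its mean and SD over the libraries (colour, in SD). Dbp, Tef, Ciart, Per2 and Per3 are below their mean over the 24 libraries in control replicates 1 and 2, where Arntl and Npas2 are above it, and the same holds in all treadmill libraries but replicate 5, where Npas2 is just below its mean.

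The core clock loop gives the surroundings of these outputs. Of the 18 genes named for it, the table listed 17 and 16 were tested. In catgut group 1 against the treadmill group, 4 were higher and 2 lower by the criterion, beside 3.12% of all genes tested. In catgut group 2 5 were higher and 2 lower, beside 3.76%. Among the repressors, Per2 had log2 fold changes of 2.06 and 2.19 (SE 0.271 and 0.268) and Per3 of 1.09 and 1.26, and among the activators Arntl had -1.80 and -2.37 and Npas2 -2.15 and -2.51. Nr1d1 had -0.26 and -0.51 and met the criterion in neither catgut group, while Nr1d2 had 0.62 and 0.67 and met it in both. By the adjusted test Per2 (edgeR adjusted p = 0.0188 and 0.00691) and Cry2 (adjusted p = 0.0377 and 0.0152) rose in both catgut groups, and Arntl and Npas2 fell in catgut group 2 (adjusted p = 0.00494 and 0.0427). In treadmill against control, 1 met the criterion as higher and 2 as lower, beside 2.85% of all genes tested. The higher gene was Fbxl21, with low means of 0.0517 FPKM in control and 0.107 FPKM in treadmill rats. Neither Clock nor Cry1 nor the kinase genes Csnk1d and Csnk1e met the criterion in these 3 comparisons. The median over the list was near 0 in each of the 3 (0.034, 0.029 and 0.0050), with genes of the list on both sides of 0.

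Of other known clock outputs, 5 were tested. Usp2, a deubiquitinase gene with a strong daily rhythm, rose in catgut group 1 (log2 fold change 1.05, SE 0.154, edgeR adjusted p = 0.0377) and had 1.03 in catgut group 2 (SE 0.196, adjusted p = 0.0584), both against the treadmill group. Noct, the gene of the phosphatase nocturnin, met the criterion as higher in both, with 0.88 and 0.82, and Nampt, of NAD synthesis, in catgut group 1 alone (0.56). Myod1, the myogenic factor, and Cdkn1a met it in neither. In treadmill against control 1 of the 5 met the criterion, Usp2, with -0.63, beside 2.85% of all genes tested.

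Genes known in liver and other tissues as targets of the PAR bZIP factors were counted beside the activators. Of 7 such genes 6 were tested, and none met the criterion or passed the adjusted test in any of the 6 comparisons. Their median log2 fold change was -0.13 in catgut group 1 and 0.083 in catgut group 2 against the treadmill group. Por, of the cytochrome P450 reductase, had 0.16 (SE 0.138) and 0.10 (SE 0.162), and Alas1, of haem synthesis, had -0.28 (SE 0.148) and 0.064 (SE 0.270). WEE1 acts on the mitotic kinase CDK1, and its partners were counted too. Of 9 genes named for this the table listed 8 and 6 were tested, and none met the criterion in any of the 6 comparisons. In catgut group 2 against the treadmill group Cdk1 had a log2 fold change of 0.24 (SE 0.756) at 0.216 FPKM in catgut group 2.

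Glucocorticoids drive several clock genes, so genes of that response were counted beside the members. Of 8 tested, 3 were higher by the criterion in catgut group 1 and 2 in catgut group 2 against the treadmill group. None was lower by it, and 3.12 and 3.76% of all genes tested met it in either direction. Tsc22d3 (GILZ) had log2 fold changes of 0.91 (edgeR adjusted p = 0.00901) and 1.04 (adjusted p = 0.0901, which did not pass). Fkbp5 had 0.53 and 0.043 and met the criterion in neither. The list medians were 0.53 and 0.13, with Sgk1 at -0.29 and -0.16 and Mt1 at -0.58 and -1.26. In treadmill against control, Sgk1 met the criterion as higher (1.22) and Ddit4 as lower (-1.13), beside 2.85% of all genes. The immediate-early genes of exercise, 8 of 8 tested, took another pattern. All 8 met the criterion as higher in treadmill against control, beside 2.85% of all genes. Of them, 2 had an adjusted p under 0.05 in edgeR, beside 0.0542% of all genes. The median log2 fold change over the list was 2.42. None met the criterion in either catgut group against the treadmill group, where the medians were -0.027 and -0.074.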

How the data were processed

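Poly(A) RNA of 24 rat quadriceps muscles was sequenced by the authors, and groups and replicate numbers were taken from the sample labels. The authors deposited 1 table that gives each gene and library both a count and FPKM. HISAT2 2.0 and StringTie 1.3.0 are named in the submitters' processing notes, and the genome build and the step that made the counts are not given in the sources used here. The deposited counts have 4 and 8 as their commonest values above 0, and were used as listed. FPKM, normalized by the authors for length and mapped fragments, served for levels, the filter and the correlations.

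The 14772 of 21067 genes whose FPKM averaged 0.1 or more were fitted with edgeR 4.0.16 in R 4.3.3 (TMM, quasi-likelihood test, the 12 libraries of each comparison alone), with Benjamini-Hochberg adjustment over all genes tested. Standard errors were derived from the F statistic, and 95% intervals from the t distribution. The study's criterion (ratio of mean FPKM over 1.5 or under 0.667, unadjusted p under 0.05) was counted beside it, with the p of the fit made here. Exact permutation tests were two-sided on log2(FPKM + 1) over 924 arrangements. Correlations used 100000 resamples and 36 relations (28 pairs of members and each member with Arntl). The p-values set a group difference against the spread between rats, with the 6 libraries of a group taken as independent. Rats of the same sex shared cages, and cage was not modelled.

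The alternatives were no filter, a mean FPKM of at least 1, median-ratio size factors, 1 fit over all 4 groups, DESeq2 1.42.0, limma 3.58.1 on log2(FPKM + 1) and log2(FPKM + 0.1), the Y-linked level as a covariate, a replicate block and each library left out. Fits on libraries with or without Y-linked transcripts were chosen after seeing the data. The fits were tested on simulated data. The genes named are the 8 members, members of the gene lists, and the 3 genes with the highest and the 1 with the lowest correlation with each member, of which some are named. The members and lists were chosen with earlier results of these data known. Promoter windows came from RefSeq (GRCr8) and were used for sequence only.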

Additional observations from a re-analysis of the deposited data

Results flagged for a closer look

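In each gene and group, the gap between the most extreme library and its nearest neighbour was set against the range of the 6 libraries, with Dixon's 95% critical value for 6 values, and 2 of 32 groups passed it. By chance about 5% of such groups would pass. Bhlhe41 was 25.2 FPKM in catgut 1 replicate 3, where the other 5 libraries were at 12.3 to 14.8 FPKM. Wee1 was 9.31 FPKM in catgut 1 replicate 5, where the others were at 3.74 to 5.80 FPKM. That library also had the highest Nfil3 of its group, at 18.3 FPKM. Without it the log2 fold change of Wee1 in catgut 1 against treadmill was 0.64, and without catgut 1 replicate 3 that of Bhlhe41 was 0.33.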

How the results depend on the processing

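The criterion count in treadmill against control was 5 in 1 fit over all 4 groups and 1 to 5 with 1 library left out, against 3 as reported. Of all 14772 genes tested, 469 met it in the 1 fit and 366 to 652 with 1 library left out, against 421. Among libraries with and without Y-linked transcripts the count of members was 5 and 0, beside 1455 and 449 of all genes. With these 2 sets the count in catgut 1 against control was 1 and 1, beside 858 and 577 of all genes, against 0. In catgut 2 against control it was 1 and 1, beside 1639 and 840 of all genes, against 0. In catgut 2 against treadmill it was 3 in the set with Y-linked transcripts, beside 635 of all genes, against 5. Leaving out 1 library gave 0 to 1 in catgut 2 against control. It was 1 without catgut 2 replicate 1 or 4 or control replicate 4 or 5, beside 753, 1101, 960 and 871 of all genes.

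Members called in catgut 1 against treadmill numbered 4 in DESeq2 (139 of all genes) and 1 with the Y-linked covariate (16), against 0 (7). In catgut 2 against treadmill they numbered 4 in DESeq2, 3 in limma on log2(FPKM + 0.1), 2 in limma on log2(FPKM + 1), 3 with the Y-linked covariate, 0 in each set split by Y-linked transcripts and 1 to 3 with 1 library left out, against 1. Of all genes tested, 309 were called in DESeq2, 30 and 21 in limma with 0.1 and 1 added, and 48 with the covariate. As reported the number was 35. The sets with and without Y-linked transcripts called 2 and 1 of all genes, and the fits without 1 library 6 to 30. In catgut 2 against control the members called numbered 1 in DESeq2 (695 of all genes) and 1 with the Y-linked covariate (131), against 0 (75).

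The replicate numbers did not pair the samples across groups, but in part they followed the Y-linked transcripts. In control, treadmill and catgut 1 rats these were not detected in replicates 1 to 3 and were detected in replicates 4 to 6. In catgut 2 rats they were detected in replicates 1 and 5 only. Deviations of same-numbered libraries correlated between -0.447 and 0.273 over the 6 comparisons, and at most 3 of 6 pairs were over 0.1 in any. With the replicate block, which so partly follows this split, 0 members were called in catgut 2 against treadmill, beside 3 of all genes.

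Some signs reversed, of values near 0 and of larger ones. Among libraries with Y-linked transcripts, the log2 fold change in catgut 1 against treadmill was 0.29 for Nfil3 and -0.063 for Bhlhe40 (-0.011 for Bhlhe40 at a mean FPKM of at least 1), in catgut 2 against treadmill 0.14 for Nfil3 and -0.37 for Bhlhe41, and in catgut 2 against catgut 1 -0.22 for Dbp, -0.13 for Tef and -0.036 for Wee1. In the same set it was -0.10 for Tef, -0.06 for Ciart and -0.16 for Bhlhe41 in catgut 1 against control, and -0.19 for Dbp, -0.23 for Tef, 0.69 for Nfil3 and -0.45 for Ciart in catgut 2 against control. Among libraries without them it was 0.029 for Hlf and -0.26 for Nfil3 in catgut 1 against control and -0.012 for Bhlhe40 in catgut 2 against control. The cause was not tested.

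With 1 library left out, Bhlhe40 ranged from -0.12 to 0.095 in catgut 1 against treadmill, -0.21 to 0.0039 in catgut 2 against treadmill, -0.21 to 0.024 in catgut 2 against catgut 1 and -0.020 to 0.24 in catgut 2 against control. Bhlhe41 ranged from -0.061 to 0.16 in catgut 2 against treadmill and -0.095 to 0.30 in catgut 1 against control. Tef ranged from -0.033 to 0.089 in catgut 2 against catgut 1, -0.058 to 0.16 in catgut 1 against control and -0.048 to 0.17 in catgut 2 against control, and Nfil3 from -0.21 to 0.14 in catgut 2 against control. Without the 2 farthest libraries, r was -0.0244 for Tef and Bhlhe40, 0.0290 for Hlf and Nfil3, -0.00244 for Hlf and Wee1, -0.0105 for Ciart and Bhlhe40, 0.00122 for Hlf and Arntl and -0.0104 for Bhlhe40 and Arntl.

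Dbp, Tef, Ciart and Wee1 kept a positive log2 fold change in both catgut groups against the treadmill group under every alternative run. Hlf had 24 to 279 counts per library.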

Other observations

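The members also differed in how much they varied from rat to rat. In the control group the coefficient of variation of FPKM was 75.4% for Dbp and 73.7% for Ciart, beside a median of 22.7% over all genes tested, and in the treadmill group it was 64.2% and 68.1% beside 25.3%. In catgut group 1 it was 19.5% for Dbp and 13.8% for Ciart beside 24.5%, and in catgut group 2 it was 17.6% and 31.2% beside 23.2%. Hlf had 22.7% in the control group and Bhlhe40 30.2 to 33.9% in all 4 groups, so the wide spread of the untreated rats was not shared by every member. The difference in spread between groups was not tested.

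Control replicates 1 and 2 lay apart from the other controls in several clock genes, though not in Hlf. They had 1.38 and 1.79 FPKM of Per2, where the other controls had 5.20 to 9.51 and the treadmill group 1.03 to 2.99. They had 1.09 and 0.962 FPKM of Npas2, where the other controls had 0.110 to 0.417. Both were labelled as untreated controls, and both were among the libraries without Y-linked transcripts.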
